A study of Mus musculus with 9 samples.

Results

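The matrix metalloproteinases (Mmp), the secreted ADAMTS proteases (Adamts) and the tissue inhibitors of metalloproteinases (Timp) were followed in RNA from mouse brain after traumatic injury. The genes were taken by symbol, as every Mmp, Adamts or Timp name followed by its number, so no measured value entered the choice. Of 22482 genes listed, 46 belonged to these families, with 23 Mmp, 19 Adamts and 4 Timp genes. A gene counted as measured when its FPKM (a fragment count divided by transcript length and by library size) was 0.5 or more in at least 3 of the 9 libraries. That held for 27 of the 46 genes (11 Mmp, 12 Adamts and all 4 Timp) and for 14292 genes in all. The other 19 are described by their levels alone.

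The study had 3 groups of 3 libraries each. Mice of the C-β-LG/DSF group had a brain injury from a falling weight and then were given a nanoparticle preparation named C-β-LG/DSF through a tail vein. Mice of the TBI group had the injury alone, and in the Sham group skull and dura were opened over an intact brain. The injured area was sampled, or the same place in Sham. No strain, age, allele, dose or time after injury is given in the sources used here, and no injured group is labelled as having received an injection without C-β-LG/DSF. Whether each library stands for its own animal is not stated, so p-values measure only the spread between these samples.

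MMPs are zinc-dependent proteases that are made as inactive precursors and cut collagens, laminins and other matrix proteins once their propeptide is removed. ADAMTS proteases are secreted, and among them the hyalectanases cut the aggrecan and brevican around neurons while the procollagen N-proteinases trim the ends of new collagen. TIMPs block the active site of MMPs, and Timp3 also blocks ADAMTS proteases. In the injured brain the gelatinases Mmp2 and Mmp9 are known for opening the basal lamina of the blood-brain barrier.

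Depth is unknown, since no fragment counts are given; FPKM totals ran from 406274 to 445404 per library. Markers of brain cells were present as labelled. A list of 10 neuronal genes summed to 2448 to 2914 FPKM in C-β-LG/DSF, 1837 to 2588 FPKM in TBI and 3558 to 3663 FPKM in Sham. A list of 10 microglial genes summed to 411 to 571 FPKM in C-β-LG/DSF, 546 to 1232 FPKM in TBI and 195 to 240 FPKM in Sham, and TBI 1 was highest in this list and in the macrophage and astrocyte lists. TBI 3 stood apart by thalamic markers (14 genes, 318 FPKM in sum, against 62.6 and 80.5 FPKM in the other TBI libraries) and by oligodendrocyte markers (9396 against 2907 and 2961 FPKM). TBI 3 was also far apart in choroid plexus and ependymal markers (10 genes, 305 FPKM, against 51.4 and 9.68 FPKM). C-β-LG/DSF 2 had the next highest thalamic and oligodendrocyte sums, at 232 and 4962 FPKM. Hippocampal markers (12 genes) summed to 190 to 250 FPKM in C-β-LG/DSF, 108 to 285 FPKM in TBI and 101 to 113 FPKM in Sham, so the libraries also differed in regional markers. In bulk tissue, fewer cells of a type and less RNA per cell cannot be told apart.

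The comparison of TBI with Sham gave the differences of these genes between injured and uninjured tissue. The libraries also differed in regional markers, so injury and the tissue sampled cannot be told apart. The inhibitors Timp1, Timp2 and Timp4 rose, as did the proteases Mmp2, Mmp14, Mmp19, Adamts1, Adamts2 and Adamts9, and Mmp17 fell. In limma's test on log2(FPKM + 0.5), 10 of the 27 measured genes passed an adjusted p of 0.05 (37%), against 26.8% of all genes tested. The 9 that rose made up 33.3% of the measured genes, against 14.9% of all genes, and the 1 that fell compares with 12% of all genes. Adamts9 and Mmp19 had no Sham library at 0.5 FPKM and were measured only through the injured groups, so their rise was in part built into the filter. Without such genes 7 of 25 rose (28%), against 13.6% of all genes tested, and the counts are a description only. All TBI values lay on one side of all Sham values in 12 of the 27 (44.4%), against 42.9% of all genes. The median log2 difference was 0.38 over the 27 genes and 0.01 over all genes tested, with 0.17 for the Mmp, 0.39 for the Adamts and 0.74 for the Timp genes. A positive difference was seen in 22 of the 27, against 50.9% of all genes. The 7 calls of Timp1, Timp2, Timp4, Mmp2, Mmp14, Mmp19 and Adamts9 were made under the main and all 16 alternative settings, among them each library left out in turn.

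**Figure D1:**
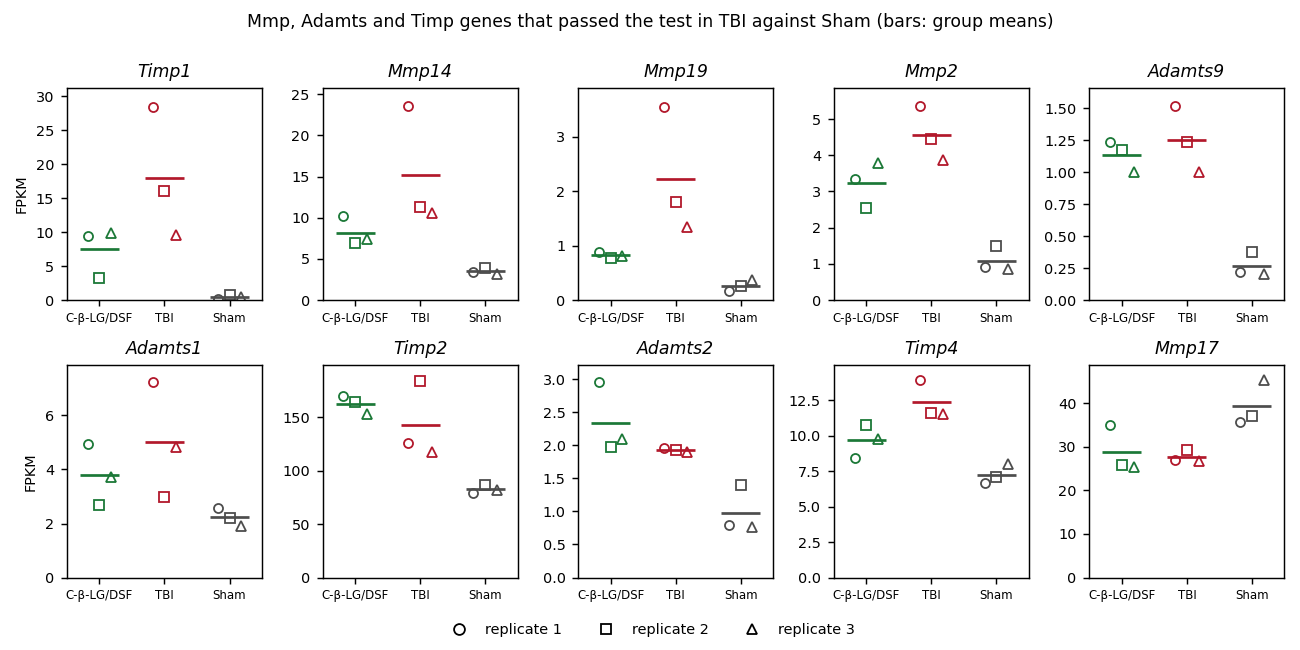
FPKM of the 10 genes that passed the test in TBI against Sham, in each library, with the C-β-LG/DSF, TBI and Sham libraries from left to right and short horizontal bars for the group means. Mmp17 is lower in every TBI library than in every Sham library, the other 9 genes are higher, and TBI 1 is the highest library of Timp1, Mmp14, Mmp19, Mmp2, Adamts9, Adamts1 and Timp4.

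Timp1, an inhibitor induced in reactive astrocytes and other stimulated cells, had the largest difference of the 27 genes. It was at 9.37, 3.29 and 9.79 FPKM in C-β-LG/DSF, at 28.4, 16.0 and 9.54 FPKM in TBI and at 0.0993, 0.731 and 0.468 FPKM in Sham. Every injured library was above every Sham library, and C-β-LG/DSF 3 was above TBI 3. The log2 difference of TBI from Sham was 4.24 (SE 0.48, adjusted p = 0.000982), and it ran from 3.85 to 4.61 with 1 library left out. Timp1 (chrX:20870166-20874735, GRCm38) lies inside Syn1, a synaptic vesicle gene on the other strand, and whether the authors' counting used strand is not stated. Syn1 fell in TBI by 0.65 on the log2 scale (adjusted p = 0.00635), and the part of Syn1 reads in the Timp1 values was not tested. The authors' interval around each Timp1 value started at 0 in all 9 libraries and reached 101 FPKM in TBI 1 and 17.5 FPKM in Sham 2.

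Timp2, which blocks MMPs and also docks the Mmp2 precursor to Mmp14 at the cell surface, was the most abundant gene of the 3 families on the FPKM scale. Its values were 170, 164 and 153 FPKM in C-β-LG/DSF, 126, 184 and 118 FPKM in TBI and 79.1, 86.4 and 82.1 FPKM in Sham. The injured libraries did not overlap with Sham, and TBI 2 was the highest of all. Timp2 rose in TBI by 0.76 (SE 0.15, adjusted p = 0.00691) on the log2 scale. Timp4, an inhibitor found in brain and heart, also rose, by 0.73 (SE 0.12, adjusted p = 0.00353). Its values were 8.46, 10.8 and 9.78 FPKM in C-β-LG/DSF, 13.9, 11.6 and 11.6 FPKM in TBI and 6.68, 7.06 and 7.97 FPKM in Sham, so that the 3 groups did not overlap and C-β-LG/DSF lay between the other two. Timp4 lies inside Syn2, and its authors' intervals also started at 0 in every library. The Syn2 difference was 0.08 (adjusted p = 0.81), and the part of Syn2 reads in the Timp4 values was not tested.

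Timp3, the inhibitor that binds to the matrix and also blocks ADAMTS proteases, was at 30.4, 32.1 and 30.0 FPKM in C-β-LG/DSF, at 25.6, 26.0 and 32.6 FPKM in TBI and at 22.9, 27.3 and 18.6 FPKM in Sham. TBI and Sham overlapped, and the log2 difference of 0.29 (SE 0.14, adjusted p = 0.159) did not pass. The 4 inhibitors together summed to 203 to 218 FPKM in C-β-LG/DSF, 171 to 238 FPKM in TBI and 109 to 122 FPKM in Sham. Timp2 made up 65.0% to 78.0% of that sum in each library. All Mmp genes together summed to 67.0 to 82.3 FPKM in C-β-LG/DSF, 74.8 to 99.3 FPKM in TBI and 69.0 to 79.3 FPKM in Sham. The Adamts sums were 35.8 to 42.7 FPKM in C-β-LG/DSF, 38.6 to 47.4 FPKM in TBI and 28.5 to 32.7 FPKM in Sham, so the Timp and Adamts sums of the injured libraries lay above all Sham sums and the Mmp sums overlapped.

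**Figure D2:**
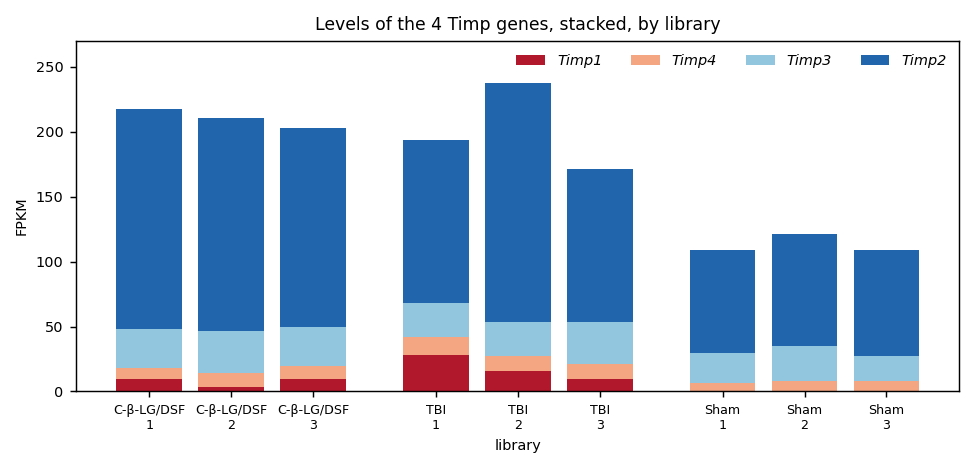
Stacked FPKM of the 4 Timp genes in each of the 9 libraries, with C-β-LG/DSF left of TBI and TBI left of Sham. The bars of the injured libraries end between 171 and 238 FPKM and those of Sham between 109 and 122 FPKM, Timp2 is the largest segment everywhere, and the Timp1 segment is visible only in the injured libraries.

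Among the proteases, the gelatinase Mmp2 and its membrane-bound activator Mmp14 rose together. Mmp2 (chr8:92827291-92853420) was at 3.35, 2.53 and 3.79 FPKM in C-β-LG/DSF, at 5.36, 4.44 and 3.86 FPKM in TBI and at 0.917, 1.48 and 0.843 FPKM in Sham. The 3 groups did not overlap, with Sham lowest and TBI highest. TBI differed from Sham by 1.69 (SE 0.20, adjusted p = 0.00117). Mmp14 (chr14:54431612-54445364) was at 10.2, 6.90 and 7.44 FPKM in C-β-LG/DSF, at 23.6, 11.3 and 10.6 FPKM in TBI and at 3.41, 3.87 and 3.18 FPKM in Sham. TBI 1 was the highest library, and again the groups did not overlap. The log2 difference of TBI from Sham was 1.89 (SE 0.27, adjusted p = 0.00210), and 1.53 (adjusted p = 0.00156) without TBI 1. The authors' interval around the Mmp14 value was above 0 in every library.

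Mmp19, a secreted protease that cuts basement membrane proteins, also rose, at low levels. It was at 0.876, 0.777 and 0.799 FPKM in C-β-LG/DSF, at 3.55, 1.80 and 1.34 FPKM in TBI and at 0.174, 0.249 and 0.375 FPKM in Sham, again with no overlap between groups. TBI differed from Sham by 1.76 (SE 0.28, adjusted p = 0.00269). The end of Mmp19 overlaps that of Tmem198b on the other strand, a gene that rose as well (0.74, adjusted p = 0.0155), and the authors' interval around Mmp19 started at 0 in every library. Beside these increases stood the rise of many myeloid and glial markers. In TBI against Sham 10 of 10 microglial, 7 of 11 measured macrophage, 7 of 10 astrocyte and 6 of 11 measured fibroblast and meningeal markers passed as higher and 0 as lower. So did 9 of 10 markers of oligodendrocyte precursors, 7 of 11 measured hippocampal, 3 of 4 measured blood and 3 of 10 choroid plexus and ependymal markers, again with 0 lower. Of the other lists, 2 of 10 endothelial, 3 of 10 pericyte and smooth muscle and 1 of 4 measured neutrophil markers passed as higher and 0 as lower. Of 10 oligodendrocyte markers 0 passed, and of 14 thalamic markers 1 passed as higher and 1 as lower. Macrophage markers summed to 48.7 to 108 FPKM in C-β-LG/DSF, 79.5 to 296 FPKM in TBI and 18.1 to 34.4 FPKM in Sham. The fibroblast and meningeal sums were 115 to 165 FPKM in C-β-LG/DSF, 122 to 174 FPKM in TBI and 45.7 to 80.0 FPKM in Sham. No microglial, macrophage, astrocyte, fibroblast or meningeal marker was at 0 in all Sham libraries, and the part of these cells in the rise of Timp1, Mmp2, Mmp14 and Mmp19 was not tested.

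Mmp17, a protease held at the cell membrane by a glycolipid anchor, had the highest FPKM of the Mmp genes in every library. It was at 34.9, 25.9 and 25.3 FPKM in C-β-LG/DSF, at 27.1, 29.3 and 26.7 FPKM in TBI and at 35.7, 37.2 and 45.4 FPKM in Sham. The TBI libraries lay below all Sham libraries, and the difference of -0.50 (SE 0.14, adjusted p = 0.0266) passed. The call was lost without Sham 2 (-0.53, adjusted p = 0.0554), Sham 3 (-0.39, adjusted p = 0.101), TBI 1 (-0.48, adjusted p = 0.0655) or TBI 3 (-0.47, adjusted p = 0.0504). Of the 10 neuronal markers, 5 fell and 0 rose, and the part of that decrease in the Mmp17 result was not tested.

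Mmp9, the gelatinase of neutrophils and activated glia, showed no detectable difference. It was at 0.926, 1.80 and 0.714 FPKM in C-β-LG/DSF, at 0.923, 1.12 and 1.22 FPKM in TBI and at 1.0, 1.28 and 0.552 FPKM in Sham, and all groups overlapped. The log2 difference of TBI from Sham was 0.17 (95% interval -0.46 to 0.79, adjusted p = 0.689), which leaves room for a change in either direction. The highest library, C-β-LG/DSF 2, was also highest in the sum of 11 neutrophil markers (37.7 FPKM, against 3.05 to 19.1 FPKM in the other 8), whose part in its Mmp9 value was not tested. The transmembrane proteases Mmp15, Mmp16 and Mmp24, with Mmp11, Mmp23 and Mmp28, did not pass either. Their log2 differences ran from -0.19 for Mmp24 to 0.53 for Mmp11, a stromelysin activated inside the cell (adjusted p = 0.0854 for Mmp11). Mmp15 passed without TBI 2 (0.48, adjusted p = 0.0274).

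Of the 12 measured Adamts genes, Adamts1, Adamts2 and Adamts9 rose in TBI and 0 fell, which is 25% called, near the 26.8% of all genes tested. Adamts9, a hyalectanase that cuts aggrecan and versican, was at 1.23, 1.17 and 1.0 FPKM in C-β-LG/DSF, at 1.52, 1.24 and 0.999 FPKM in TBI and at 0.218, 0.372 and 0.204 FPKM in Sham. Injured and Sham libraries did not overlap, while C-β-LG/DSF and TBI did. TBI differed from Sham by 1.19 (SE 0.19, adjusted p = 0.00267), or 0.75 (adjusted p = 0.0185) after quantile normalization. Adamts1, another hyalectanase, was at 4.95, 2.69 and 3.73 FPKM in C-β-LG/DSF, at 7.22, 2.96 and 4.84 FPKM in TBI and at 2.56, 2.21 and 1.90 FPKM in Sham. All injured libraries were above Sham, but TBI 2 was close to it. The log2 difference of TBI from Sham was 0.95 (SE 0.29, adjusted p = 0.0390). The Adamts1 call was lost when any Sham library, TBI 1, TBI 3 or C-β-LG/DSF 3 was left out, with adjusted p from 0.06 to 0.121, and without TBI 1 the difference was 0.67. It was also lost with no filter (adjusted p = 0.0625), after quantile normalization (0.69, adjusted p = 0.108) and with only the 2 groups compared (adjusted p = 0.0562).

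Adamts2, a procollagen N-proteinase, was at 2.95, 1.97 and 2.1 FPKM in C-β-LG/DSF, at 1.95, 1.93 and 1.90 FPKM in TBI and at 0.788, 1.40 and 0.758 FPKM in Sham. The groups did not overlap, and C-β-LG/DSF was the highest group. TBI differed from Sham by 0.74 (SE 0.20, adjusted p = 0.0261). This call was lost without Sham 1 (0.65, adjusted p = 0.0910), Sham 3 (0.63, adjusted p = 0.0955), TBI 1 (0.73, adjusted p = 0.0577) or TBI 2 (0.74, adjusted p = 0.0545). After quantile normalization the difference was 0.35 (adjusted p = 0.221). Adamts3, the related N-proteinase that also processes vascular endothelial growth factor C, was at 2.63, 2.69 and 2.44 FPKM in C-β-LG/DSF, at 2.27, 2.2 and 3.91 FPKM in TBI and at 3.63, 4.26 and 5.41 FPKM in Sham. TBI 3 lay within the Sham range, and the log2 difference of -0.61 (SE 0.21, adjusted p = 0.0605) passed without TBI 3 (-0.84, adjusted p = 0.00691) and after quantile normalization (-0.84, adjusted p = 0.0203).

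Adamts4, a hyalectanase with high activity on brevican, was at 3.73, 7.75 and 6.63 FPKM in C-β-LG/DSF, at 6.38, 4.07 and 14.0 FPKM in TBI and at 4.22, 3.18 and 5.83 FPKM in Sham. TBI 3 was far above every other library, and the log2 difference of TBI from Sham was 0.68 (SE 0.41, adjusted p = 0.251), or 0.23 without TBI 3. Adamts6 was also highest in TBI 3, at 1.82 FPKM, and next in C-β-LG/DSF 2, at 1.41 FPKM. These 2 libraries had the highest sums of the thalamic and oligodendrocyte markers given above, TBI 3 was also the highest in choroid plexus and ependymal markers, and the part of all these markers in the Adamts4 and Adamts6 values was not tested. The log2 differences of Adamts6, Adamts8, Adamts10, Adamts15, Adamts16, Adamts17 and Adamts20 from Sham ran from -0.10 to 0.46, and none passed. Adamts10, a protease of the fibrillin microfibrils, passed without TBI 3 (0.52, adjusted p = 0.0356). Adamts5, the hyalectanase best known from cartilage, was not measured, at 0.238 to 0.590 FPKM in C-β-LG/DSF, 0.308 to 0.489 FPKM in TBI and 0.189 to 0.287 FPKM in Sham.

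**Figure D3:**
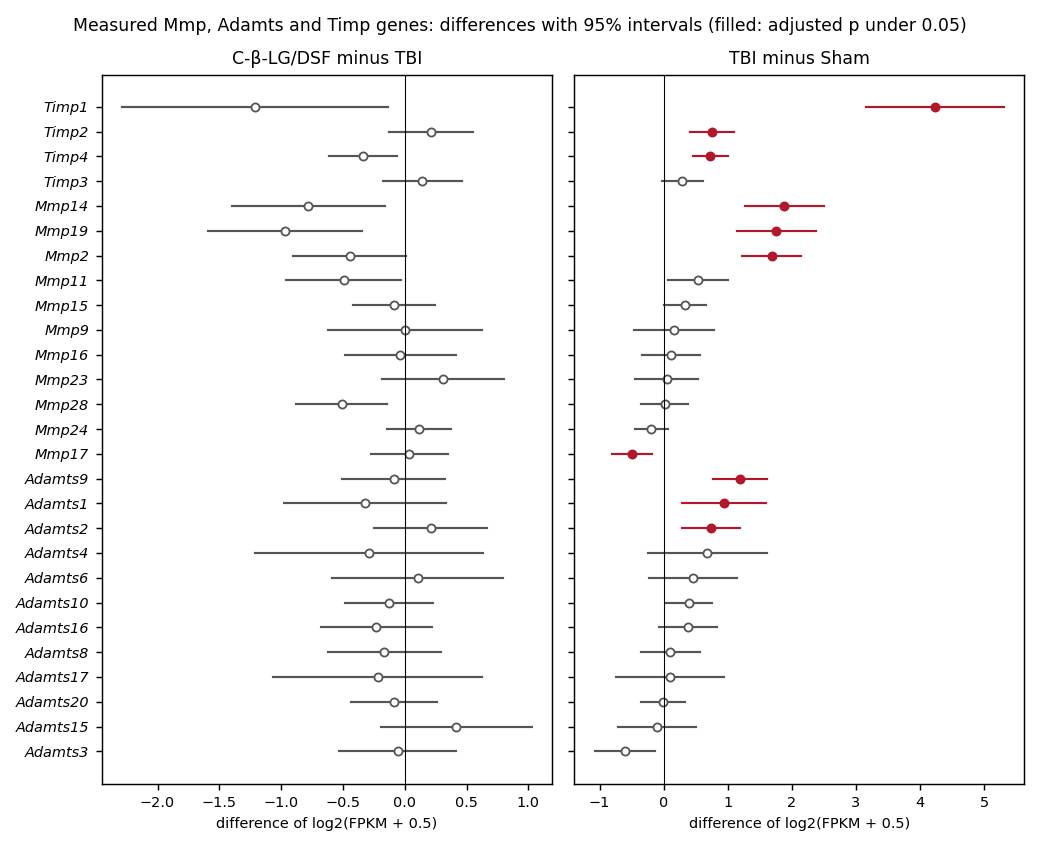
Differences of log2(FPKM + 0.5) for the 27 measured genes with their 95% intervals, for C-β-LG/DSF minus TBI on the left and TBI minus Sham on the right. Filled points passed an adjusted p of 0.05, which holds for 10 genes on the right, from Mmp17 at -0.50 to Timp1 at 4.24, and for 0 genes on the left.

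The 19 genes that were not measured include the collagenases and stromelysins known from wounds and inflamed tissue. Mmp1a, Mmp1b, Mmp7 and Mmp20 were listed at 0 in every library, and the other 15 were above 0 in at least 1. All TBI libraries lay above all Sham libraries in 9 of these 15 (60%), against 12% of the 4115 genes of the table that were likewise not measured but above 0 somewhere. All C-β-LG/DSF libraries lay above all Sham libraries in 6 of the 15 (40%), against 11% of those genes. Mmp3, Mmp10 and Mmp27 were listed at 0 in all Sham libraries and were above 0 only in injured ones. These counts were thus in part built into the choice of genes and are a description only. TBI 1 was the highest library for 9 of the 15. Of the unmeasured Mmp genes, 10 lie side by side on chromosome 9 (chr9:7272514-7699585, GRCm38). Together they summed to 1.52, 0.736 and 1.51 FPKM in C-β-LG/DSF, 6.84, 1.28 and 1.90 FPKM in TBI and 0, 0.148 and 0.0262 FPKM in Sham. Injured libraries were above Sham throughout, with 3 to 6 of the 10 genes above 0 in C-β-LG/DSF, 6 in each TBI library and 0 to 2 in Sham.

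Mmp3, a stromelysin that also activates other MMP precursors, was at 0.453, 0.190 and 0.282 FPKM in C-β-LG/DSF, at 2.31, 0.0649 and 0.412 FPKM in TBI and listed at 0 in all Sham libraries. Mmp12, the elastase of macrophages, was at 0.495, 0 and 0.582 FPKM in C-β-LG/DSF, at 0.685, 0.112 and 0.381 FPKM in TBI and at 0, 0.0494 and 0 FPKM in Sham. The collagenase Mmp13 was at 0.244, 0.353 and 0.151 FPKM in C-β-LG/DSF, at 2.02, 0.491 and 0.647 FPKM in TBI and at 0, 0.0984 and 0 FPKM in Sham. TBI 1 was the highest library for Mmp3, Mmp12 and Mmp13. Mmp8, the collagenase of neutrophils, and Mmp13 were the 2 unmeasured genes with every C-β-LG/DSF library below every TBI library (13.3% of the 15, against 5.57% of the genes not measured but above 0). When all genes with any FPKM above 0 were tested, Mmp8, Mmp13, Adamts12 and Adamts14 passed as higher in TBI than in Sham. In that setting 12 of 42 genes of the 3 families passed as higher and 1 as lower, beside 3651 of all 18407 genes in either direction. The authors' interval started at 0 in all 9 libraries for Mmp3, Mmp8, Mmp10, Mmp12, Mmp27, Adamts12 and Adamts14 and in 8 for Mmp13.

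**Figure D4:**
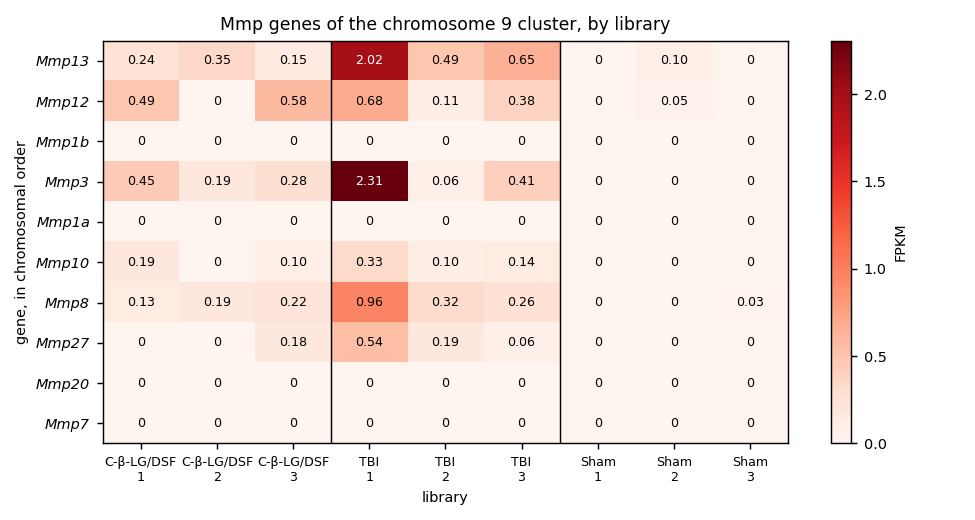
FPKM of the 10 Mmp genes that lie together on chromosome 9, in chromosomal order from top to bottom, with the C-β-LG/DSF, TBI and Sham libraries from left to right. The 2 darkest cells are Mmp3 at 2.31 FPKM and Mmp13 at 2.02 FPKM, both in TBI 1, and the Sham columns hold 3 values above 0.

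Promoter sequence gave a further description of the chromosome 9 genes beside the measured ones. RefSeq promoters (GRCm38.p6, 250 bases before to 50 after a start) were at hand for 32 of the 46 genes, and 9 motifs were searched on both strands. The AP-1 site TGAGTCA, bound by Fos and Jun proteins, was found in 7 of the 10 cluster genes and 0 of 16 measured genes, against 5.2% of 32851 promoters of all genes. The 7 were Mmp3, Mmp10, Mmp12 and Mmp13, with Mmp1a, Mmp1b and Mmp7, which were listed at 0 in every library. Mmp8 and Mmp27, above 0 in every TBI library, had no match, nor did Mmp20. The TATA box TATAAA was found in 9 of the 10 cluster genes and 1 of 16 measured genes, against 13.6% of all promoters. The GC box GGGCGG was found in 0 of the 10 and in 14 of 16, against 35.7% of all. The PEA3 site AGGAAG was found in 7 and 4 of these genes, against 35.4%, and the Runx site TGTGGTNT in Mmp13 and Mmp7, against 4.88%. No match was found among the 32 genes for the cyclic AMP response element TGACGTCA and the C/EBP site TTGCGCAA, which 1.79% and 0.183% of all promoters hold, nor for the longer STAT and NF-kB motifs, which 3.91% and 0.155% hold. A match is a description of the letters only. The 250 bases before the start are shown for 3 cluster genes that carry the AP-1 letters and for 2 measured genes that rose and carry the GC box, with those letters or their reverse complement in capitals.
Mmp3: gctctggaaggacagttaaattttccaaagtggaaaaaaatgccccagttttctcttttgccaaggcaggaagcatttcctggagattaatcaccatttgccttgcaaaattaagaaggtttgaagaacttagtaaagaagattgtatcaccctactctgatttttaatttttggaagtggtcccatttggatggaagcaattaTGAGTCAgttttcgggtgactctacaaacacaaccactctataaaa
Mmp13: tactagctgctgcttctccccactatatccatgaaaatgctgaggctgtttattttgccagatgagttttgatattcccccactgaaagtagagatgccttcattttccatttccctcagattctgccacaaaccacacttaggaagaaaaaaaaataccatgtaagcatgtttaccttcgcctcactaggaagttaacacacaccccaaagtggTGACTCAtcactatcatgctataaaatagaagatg
Mmp10: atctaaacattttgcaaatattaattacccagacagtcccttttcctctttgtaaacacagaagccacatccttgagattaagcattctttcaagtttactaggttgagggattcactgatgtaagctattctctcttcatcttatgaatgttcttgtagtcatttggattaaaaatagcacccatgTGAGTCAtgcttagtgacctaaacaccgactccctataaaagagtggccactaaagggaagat
Timp1: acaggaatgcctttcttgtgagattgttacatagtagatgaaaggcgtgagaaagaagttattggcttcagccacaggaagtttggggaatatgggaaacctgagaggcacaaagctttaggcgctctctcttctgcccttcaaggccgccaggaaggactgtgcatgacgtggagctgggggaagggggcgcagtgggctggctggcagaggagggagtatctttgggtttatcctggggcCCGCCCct
Mmp14: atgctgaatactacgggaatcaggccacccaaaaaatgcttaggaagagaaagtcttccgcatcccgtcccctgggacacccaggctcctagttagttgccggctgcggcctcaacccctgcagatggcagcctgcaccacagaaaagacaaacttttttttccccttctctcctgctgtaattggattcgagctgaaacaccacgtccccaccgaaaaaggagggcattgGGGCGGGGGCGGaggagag
The windows lie at chr9:7445572-7445821 (Mmp3), chr9:7272264-7272513 (Mmp13), chr9:7502092-7502341 (Mmp10), chrX:20869916-20870165 (Timp1) and chr14:54431348-54431597 (Mmp14), all on the plus strand. The AP-1 letters begin 46 bases before the start in Mmp3, 35 in Mmp13 and 63 in Mmp10. The GC box begins 8 bases before the start in Timp1 and 19 in Mmp14, where it stands 2 times.

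Whether the preparation altered these genes at the injured site is the question of C-β-LG/DSF against TBI. Every C-β-LG/DSF library was below every TBI library for Mmp2, Mmp11, Mmp14, Mmp19, Mmp28 and Timp4, but no difference passed the test. Limma called 0 of the 27 measured genes and 0 of all 14292 genes tested (0%) at an adjusted p of 0.05. At an unadjusted p under 0.05 there were 6 of the 27, all lower in C-β-LG/DSF (22.2%), against 7.47% of all genes lower and 11.8% in either direction. The 6 were Mmp11, Mmp14, Mmp19, Mmp28, Timp1 and Timp4, and 3 of them remained at that p without TBI 1 (Mmp14, Mmp19 and Mmp28). Of all genes 4.37% were higher at that p. Without TBI 3 there were 7 lower and 1 higher among the 27 at that p, beside 3385 of all 14292 genes in either direction. Over all genes the count at an unadjusted p was 1693, and it was 879 without TBI 1, 1011 without C-β-LG/DSF 2 and 3385 without TBI 3. C-β-LG/DSF and TBI values were fully apart in 7 of the 27 genes (25.9%), 6 lower and 1 higher in C-β-LG/DSF, against 15.3% of all genes, 9.28% lower and 5.97% higher. The median log2 difference was -0.09 over the 27 genes and -0.02 over all genes, and a positive difference was seen in 9 of the 27 (33.3%), against 46.7% of all genes.

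The member of smallest p was Mmp19, with the values given above, at 0.817 ± 0.0518 FPKM in C-β-LG/DSF against 2.23 ± 1.16 FPKM in TBI (SD, n = 3 each). Its log2 difference was -0.97 (95% interval -1.59 to -0.35, adjusted p = 0.394), and -0.65 without TBI 1. Mmp28, the secreted protease epilysin, was at 1.69, 1.14 and 1.27 FPKM in C-β-LG/DSF, at 2.27, 1.83 and 2.36 FPKM in TBI and at 2.30, 2.16 and 1.91 FPKM in Sham. Its C-β-LG/DSF libraries lay below those of both other groups (difference from TBI -0.51, 95% interval -0.88 to -0.14, adjusted p = 0.394). In TBI and Sham, Mmp28 overlapped (0.01, 95% interval -0.35 to 0.38).

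Mmp14 averaged 8.17 ± 1.75 FPKM in C-β-LG/DSF and 15.2 ± 7.28 FPKM in TBI (SD, n = 3 each). The difference was -0.78 (95% interval -1.40 to -0.16, adjusted p = 0.396), and it was -0.42 without TBI 1 and -0.98 without TBI 3. Timp4 had a difference of -0.34 (95% interval -0.62 to -0.06, adjusted p = 0.396). For Timp1 it was -1.21 (95% interval -2.28 to -0.14, adjusted p = 0.399), with overlapping groups, and -0.82 without TBI 1. For Mmp2 it was -0.45 (95% interval -0.90 to 0.01, adjusted p = 0.428). These intervals hold for each gene alone. TBI 1, highest in Timp1, Mmp2, Mmp14 and Mmp19, was also highest in microglial (1232 FPKM), macrophage (296 FPKM) and astrocyte markers (3350 FPKM). The same held for endothelial (298 FPKM), pericyte and smooth muscle (164 FPKM) and fibroblast and meningeal markers (174 FPKM). The neuronal sum of TBI 1 was the lowest of all libraries (1837 FPKM). The part of all these cells in these differences was not tested.

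For Mmp11 the difference was -0.49 (95% interval -0.96 to -0.03, adjusted p = 0.409). For the members beyond these 7 the 95% interval of the difference included 0. Timp2 averaged 162 ± 8.38 FPKM in C-β-LG/DSF and 143 ± 36.1 FPKM in TBI (SD, n = 3 each), a difference of 0.21 (95% interval -0.13 to 0.55, adjusted p = 0.555). Timp3 had a difference of 0.14 (95% interval -0.18 to 0.46), Adamts9 one of -0.09 (95% interval -0.51 to 0.33) and Mmp17 one of 0.04 (95% interval -0.27 to 0.35). Adamts2 was the gene with every C-β-LG/DSF library above every TBI library (0.21, 95% interval -0.25 to 0.67, adjusted p = 0.665). For Mmp9 the difference was 0.00 (95% interval -0.62 to 0.63), and for Adamts4 it was -0.29 (95% interval -1.21 to 0.63). These intervals include changes in both directions, so a lack of effect is not shown.

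Compared with uninjured tissue, the C-β-LG/DSF libraries were higher in Timp1, Timp2, Mmp2, Mmp14, Adamts2 and Adamts9. Both comparisons with Sham share the Sham libraries, so their values are given side by side and not as separate evidence. These 6 of the 27 measured genes passed the test (22.2%), all higher, against 13.3% of all genes in either direction, 6.37% higher and 6.88% lower. Adamts9 had no Sham library at 0.5 FPKM and was measured only through the injured groups. Its higher level was thus in part built into the filter here too, and the counts of this comparison are a description only. Timp2 rose by 0.97 (adjusted p = 0.00514), Timp1 by 3.02 (0.00539), Mmp2 by 1.24 (0.00621), Adamts9 by 1.10 (0.00697), Adamts2 by 0.95 (0.0174) and Mmp14 by 1.11 (0.0295), where the values in brackets are adjusted p. The groups did not overlap in 15 of the 27 (55.6%), against 43.1% of all genes, and the median log2 difference was 0.31, against 0.01 over all genes. Timp1, Timp2, Mmp2 and Adamts9 passed under the main and all 16 alternative settings.

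The Mmp14 call was lost when any Sham or C-β-LG/DSF library was left out, with adjusted p from 0.0556 to 0.0977. The Adamts2 call was lost without C-β-LG/DSF 1, C-β-LG/DSF 3, Sham 1 or Sham 3, with adjusted p from 0.051 to 0.0716. Both were also lost after quantile normalization (Mmp14 0.97, adjusted p = 0.0546, and Adamts2 0.67, adjusted p = 0.0615). Mmp17 (-0.46, adjusted p = 0.0571) passed without C-β-LG/DSF 1 (-0.61, adjusted p = 0.0159). Timp4 (0.39, adjusted p = 0.0663) passed without TBI 1 (adjusted p = 0.0401), Timp3 (0.44, adjusted p = 0.0737) without Sham 2 (0.57, adjusted p = 0.0471) or TBI 3 (adjusted p = 0.0439), Mmp19 (0.79, adjusted p = 0.0895) without TBI 1 (adjusted p = 0.0171) or TBI 3 (adjusted p = 0.0468), and Adamts3 (-0.66, adjusted p = 0.0677) without TBI 3 (adjusted p = 0.0179). TBI libraries enter this comparison only through the shared spread. With only the 2 groups compared, Timp3 (adjusted p = 0.0461), Timp4 (0.0444), Mmp19 (0.0180) and Adamts3 (0.0176) passed as well. Timp3 (0.53, adjusted p = 0.0370) and Timp4 (0.48, adjusted p = 0.0325) also passed with equal totals, and Adamts3 (-0.81, adjusted p = 0.0401) and Mmp28 (-0.75, adjusted p = 0.0229) after quantile normalization.

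Genes that activate, block, dock or are cut by these proteases are given for context. The counts of TBI against Sham in these lists stand beside 14.9% of all genes tested that rose and 12% that fell. Of 11 measured activators and activator receptors, 8 rose in TBI against Sham and 0 fell, with a median log2 difference of 0.81. Klk8, the neuronal protease neuropsin, rose by 2.33 (adjusted p = 0.00179), Klk6, a protease of oligodendrocytes, by 3.33 (adjusted p = 0.00260) and Plat, the tissue plasminogen activator, by 0.59 (adjusted p = 0.00203). Of 10 measured other inhibitors, 5 rose and 2 fell (median 0.21), and A2m, the broad protease trap alpha-2-macroglobulin, averaged 3.96 ± 0.895 FPKM in C-β-LG/DSF, 7.70 ± 3.58 FPKM in TBI and 0.382 ± 0.150 FPKM in Sham (SD, n = 3 each). Serpinf2, the antiplasmin, rose by 1.91 (adjusted p = 0.00973).

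Of 34 measured substrates, 18 rose and 1 fell (median 0.84), among them the collagen gene Col3a1, at 9.28 ± 3.74 FPKM in C-β-LG/DSF, 18.2 ± 6.96 FPKM in TBI and 1.66 ± 0.784 FPKM in Sham (SD, n = 3 each), the matrix gene Sparc (1.92, adjusted p = 0.00213) and Spp1, the osteopontin gene. Of 10 docking and uptake genes, 4 rose and 0 fell (median 0.81), among them Lcn2, whose protein binds Mmp9, Cd44, a cell surface dock of Mmp9 (2.39, adjusted p = 0.00631), and Sdc4 (1.06, adjusted p = 0.00507). Of the 7 ADAMTS-like and papilin genes, which lack the protease domain, Thsd4 rose (1.08, adjusted p = 0.0104) and Adamtsl2 fell (-0.82, adjusted p = 0.0288). Of 10 ADAM genes, 3 rose and 3 fell, with Adam17 (0.85, adjusted p = 0.00185) and Adam8 (2.29, adjusted p = 0.00596) higher and Adam33 (-1.12, adjusted p = 0.00766) lower. In C-β-LG/DSF against TBI 0 genes of these 6 lists passed, with medians from -0.39 for the activators to -0.05 for the ADAMTS-like genes. With C-β-LG/DSF set against Sham, 3 activators, 1 other inhibitor, 8 substrates, 3 docking, 2 ADAM and 1 ADAMTS-like genes passed as higher, and 1 substrate, 1 ADAM and 1 ADAMTS-like gene as lower, beside 6.37% of all genes higher and 6.88% lower.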

How the data were processed

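Per the labels, total RNA of mouse brain (Trizol) was sequenced after a stranded Illumina total RNA preparation. Reads were aligned with HISAT2 2.1.0 and genes quantified with Cufflinks 2.2.1, per the submitters' processing notes. The deposited values are FPKM per gene and library, with the authors' interval around each. Build and annotation are not given in the sources used for this work; 22452 of 22482 identifiers, and those of all 46 genes described, were found in GENCODE M21 (GRCm38), which gave positions.

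Values were tested as log2(FPKM + 0.5) in limma 3.58.1 (R 4.3.3), over 14292 genes, with 1 mean per group, a mean trend and two-sided p-values adjusted by Benjamini-Hochberg over all genes of a comparison. The threshold was an adjusted p of 0.05. Adding 0.5 makes the differences of low genes too small. The script was tested on simulated data. With 3 against 3, an exact permutation test of 1 gene cannot go below 0.1. Of the 46 genes, 13 share their locus with another gene (10 of the 27 measured), and their reads may have been split.

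Values in every library were given for a set list of inhibitors, gelatinases, hyalectanases and others, for genes called with a mean of at least 1 FPKM, and for the 4 genes of smallest p in C-β-LG/DSF against TBI. Mmp8, Mmp11, Mmp13, Mmp15, Adamts3, Adamts6, Adamts10 and the other genes named beyond these were chosen after their values were seen. From each context list, genes among the 3 of smallest p in TBI against Sham were named (1 is not reported here), and these were not refitted under the alternatives. Genes, lists and markers were chosen with earlier results of these data known. Alternatives were a pseudocount of 1, no filter, a filter at 1 FPKM, quantile normalization, equal totals, only the 2 groups compared, the replicate number as a block, and each library left out.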

Additional observations from a re-analysis of the deposited data

How the results depend on the processing

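Depth is unknown, and most Adamts and several Mmp genes lie near the floor of measurement, so small differences may have been missed. The authors' interval started at 0 in all 9 libraries for Mmp11, Mmp19, Mmp23, Timp1 and Timp4, and these intervals did not enter the test. The count of genes called higher stayed between 7 and 12 for TBI against Sham and between 4 and 9 for C-β-LG/DSF against Sham, and 0 were called for C-β-LG/DSF against TBI, under each alternative. The count called lower for TBI against Sham, 1 as reported, was 2 after quantile normalization (Adamts3 and Mmp17) and 0 to 1 with 1 library left out. For C-β-LG/DSF against Sham, 0 as reported, it was 2 after quantile normalization (Adamts3 and Mmp28), 1 with only the 2 groups compared and 0 to 1 with 1 library left out. Differences near 0 changed sign. Of the TBI differences from Sham, Mmp28 was -0.31 and Mmp9 -0.19 after quantile normalization, and with 1 library left out Mmp28 ran from -0.046 (without Sham 3) to 0.105 and Mmp9 from -0.043 (without Sham 3) to 0.33. Of the C-β-LG/DSF differences from TBI, Adamts9 was 0.0043 after quantile normalization. With 1 library left out it ran from -0.20 to 0.017 (without TBI 1), Adamts4 from -0.67 to 0.17 (without TBI 3), Mmp17 from -0.11 (without C-β-LG/DSF 1) to 0.12, and Mmp9 from -0.27 (without C-β-LG/DSF 2) to 0.19. The cause of these changes was not tested. The labels do not say whether a replicate number pairs libraries. Same-numbered libraries of 2 groups correlated in their deviations from the group means with r from -0.0948 to 0.326. Differently numbered ones ran from -0.449 to 0.48, so these values cannot show whether libraries were paired. With the replicate numbers as a block, the counts were again 9 higher and 1 lower for TBI against Sham and 0 for C-β-LG/DSF against TBI. For C-β-LG/DSF against Sham they were again 6 higher and 0 lower.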
